A study of Homo sapiens with 23 samples.

Results

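Triglyceride synthesis and lipolysis were followed through 10 genes, DGAT1, DGAT2, MOGAT2, MOGAT3, GPAM, AGPAT2, LPIN1, PNPLA2, PNPLA3 and MGLL, which were taken by symbol from the 60564 genes listed for each library. Each of the 10 symbols matched 1 gene. The mRNA-seq data comprised 23 libraries from a pair of established human cell lines, Caco-2 (11 libraries), derived from a colorectal tumour and used as a model of the intestinal epithelium, and HepG2 (12 libraries), derived from a hepatocellular carcinoma and used as a model of liver cells. Both lines were grown in a microfluidic gut and liver chip, either alone (mono-culture) or with the other line sharing the circulating medium (co-culture), and were harvested after 1 day with FFAs or without them (control). FFAs were palmitic acid and oleic acid at a total of 1 mM, with more oleic than palmitic acid. Caco-2 cells in co-culture without FFAs had 2 libraries, and the other 7 combinations of line, culture and treatment had 3 each. All groups shared a basal medium and the chip, and both lines are tumour lines, so neither is normal gut or liver tissue. The paper states at least 2 independent experiments for its mRNA-seq, without saying which libraries came from which. The labels do not say whether libraries of a group came from separate chips or cultures, so p-values measure the spread between these libraries.

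Triglyceride is built on a glycerol backbone. In the glycerol phosphate route, glycerol-3-phosphate acyltransferases such as GPAM add the first fatty acid, 1-acylglycerol-3-phosphate acyltransferases such as AGPAT2 add the next to make phosphatidic acid, lipins such as LPIN1 remove the phosphate to give diacylglycerol, and DGAT1 or DGAT2 adds the last fatty acid. In the monoacylglycerol route, which enterocytes use to rebuild dietary fat, MOGAT2 and MOGAT3 make diacylglycerol from monoacylglycerol. In lipolysis, PNPLA2 (adipose triglyceride lipase) cleaves triglyceride with its co-activator ABHD5 and under inhibition by G0S2, PNPLA3 is a related lipid droplet protein abundant in liver, and MGLL cleaves monoacylglycerol to glycerol and fatty acid.

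Levels are given as TPM, a relative transcript abundance that is scaled by transcript length and to the same total in each library, so that genes can be set side by side. Differences are log2 fold changes of TPM + 1 with the standard error (SE) or the 95% interval, from limma with Benjamini-Hochberg adjustment over all genes tested, and a gene was called at an adjusted p under 0.05. A gene was tested where its mean reached 1 TPM in at least 1 group. By this rule 9 of the 10 genes were tested within Caco-2 (MOGAT2 was not), 9 within HepG2 (MGLL was not) and 10 between the lines. Sequencing depth is not known, because the files hold no counts.

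The lines matched their labels in most markers. The sum of 8 hepatocyte markers was 62080 to 92000 TPM in the HepG2 libraries, and 4730 to 6917 TPM in the Caco-2 libraries, where none of the 8 was listed at 0. The sum of 8 enterocyte markers was 878.3 to 1187 TPM in Caco-2 and 154.5 to 245.0 TPM in HepG2, where VIL1 alone had a mean of 204.0 TPM. Without VIL1 the other 7 markers summed to 470.0 to 555.4 TPM in mono-cultured Caco-2 and to 0.28 to 4.12 TPM in HepG2. HepG2 libraries numbered 3 listed more genes above 0 TPM (21588 to 22416) than those numbered 1 and 2 (19259 to 20873). DGAT2 and MOGAT2 are also given by this number.

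Most of the 10 genes differed between the lines. Of the 10, 8 were called between Caco-2 and HepG2 averaged over the 4 conditions, 4 higher in Caco-2 (AGPAT2, DGAT2, MGLL and DGAT1) and 4 higher in HepG2 (MOGAT2, PNPLA2, LPIN1 and GPAM). This contrast called 79.0% of all 16495 genes tested, so a share of 8 in 10 is near the background. MGLL passed the filter on low values through Caco-2 only and MOGAT2 through HepG2 only, so a difference between the lines was built into their inclusion. Of the other 8 genes, which reached 1 TPM in both lines, 6 were called, 3 in each direction, beside 77.0% of the 12841 genes that did so, a count added after the data were seen. The 8 genes called between the lines all kept their direction and stayed called after median-of-ratios scaling and after quantile normalization. These scalings moved the median of all genes to 0.049 and -0.0036. They brought the calls to 9 and 10 of the 10 genes, 4 of them higher in Caco-2 each time. As reported, the median log2 fold change was -0.036 over the 10 genes and 0.24 over all genes tested. The libraries of the lines did not overlap for 5 of the genes, AGPAT2, DGAT2 and MGLL being higher in Caco-2 (28.6% of all genes tested were so) and MOGAT2 and PNPLA2 lower (14.1%). In bulk RNA, fewer cells of a type and less RNA per cell cannot be told apart.

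**Figure D1:**
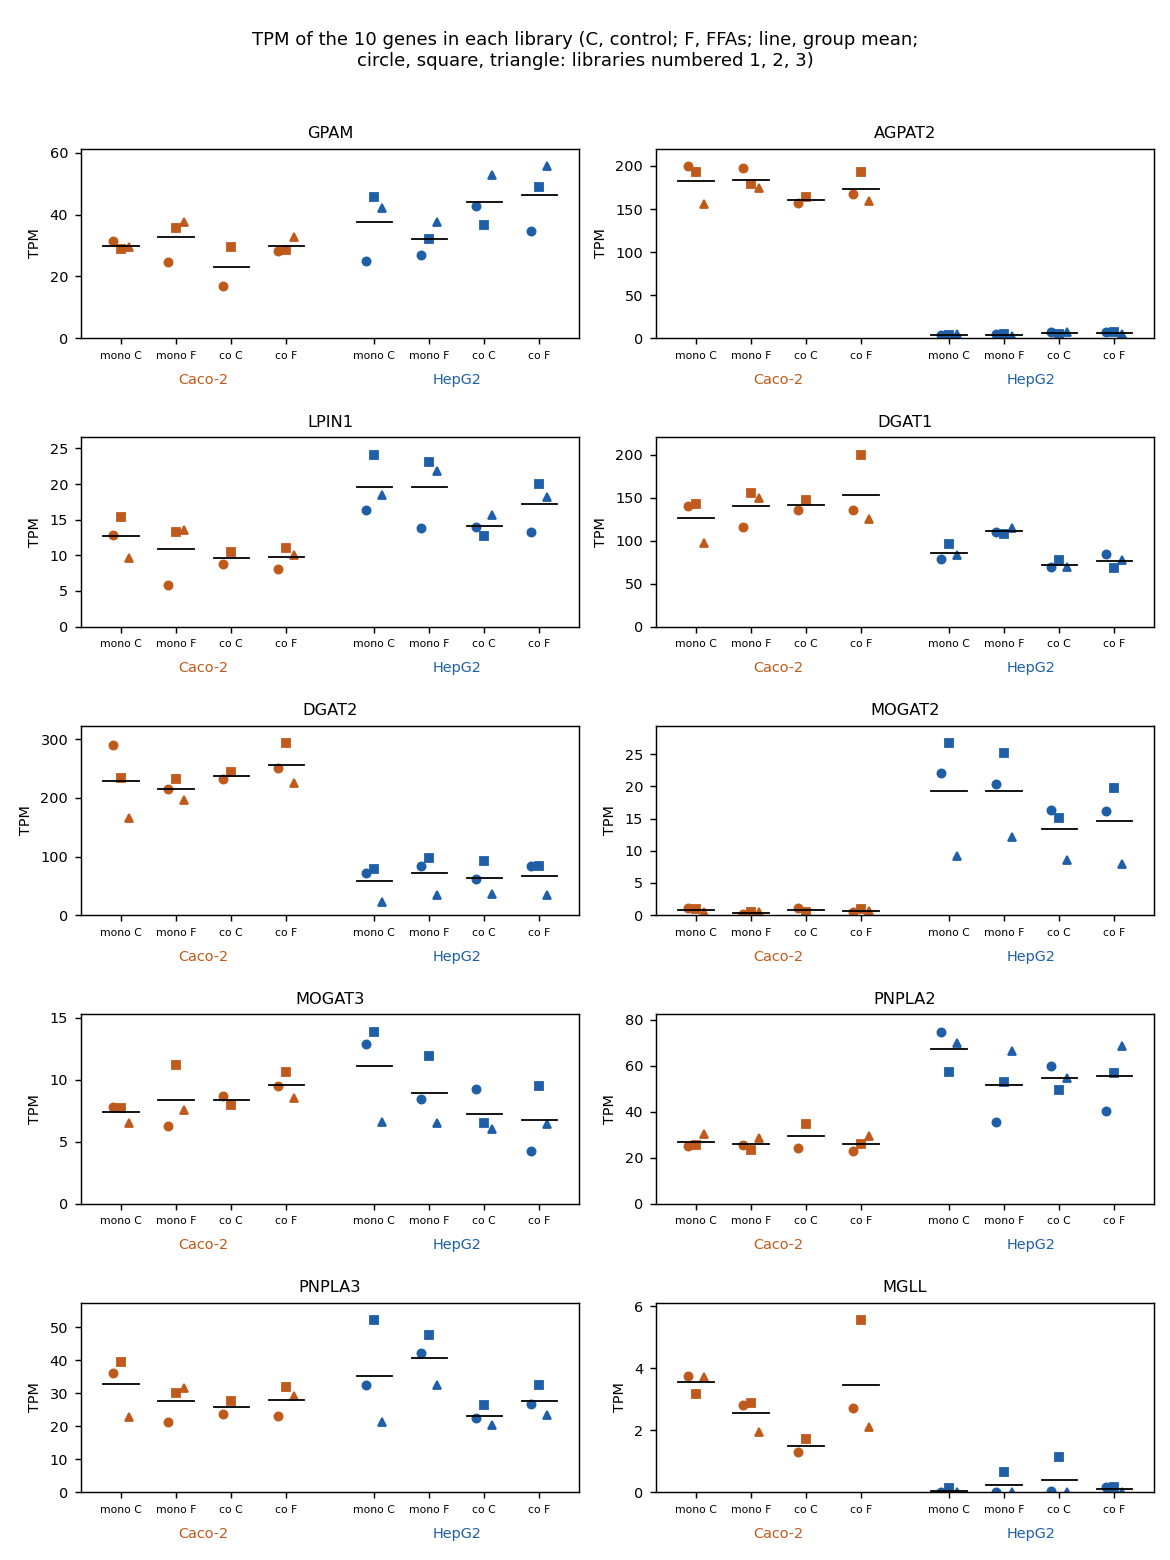
TPM (y axis, linear, from 0) of the 10 genes in each library, by line, culture and treatment on the x axis (C, control; F, FFAs); points are libraries, marker shape gives the replicate number, and short lines are group means. AGPAT2 and DGAT2 stand higher in each Caco-2 library than in any HepG2 library, MOGAT2 and PNPLA2 stand lower, and the HepG2 triangles of DGAT2 and MOGAT2 lie below the other HepG2 points.

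AGPAT2 showed the widest gap of the 10 genes between the lines. AGPAT2 encodes an acyltransferase of the endoplasmic reticulum that forms phosphatidic acid. In mono-cultured Caco-2, its level was 199.9, 193.2 and 155.5 TPM in the control libraries and 198.2, 179.0 and 174.8 TPM with FFAs. In co-cultured Caco-2, it was 157.1 and 164.4 TPM in the control libraries and 167.1, 193.2 and 159.4 TPM with FFAs. The Caco-2 groups overlapped one another, and the lowest Caco-2 library stood far above the highest HepG2 library, at 7.23 TPM. The mean was 176.5 ± 17.1 TPM (SD, n = 11) in Caco-2 and 5.01 ± 1.51 TPM (SD, n = 12) in HepG2, a ratio of 35.2. Between the lines the log2 fold change was 4.91 (SE 0.094 by limma, adjusted p = 7.9e-20).

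GPAM and LPIN1 were higher in HepG2. GPAM, a mitochondrial glycerol-3-phosphate acyltransferase, ranged from 16.9 to 37.6 TPM in Caco-2 and from 25.1 to 55.7 TPM in HepG2, with much overlap. Its log2 fold change between the lines was -0.45 (SE 0.12 by limma, adjusted p = 0.00225), the smallest of the 8 called. LPIN1, a phosphatidic acid phosphatase that also acts as a transcriptional coregulator, ranged from 5.81 to 15.4 TPM in Caco-2 and from 12.7 to 24.1 TPM in HepG2. Its log2 fold change was -0.68 (SE 0.13 by limma, adjusted p = 0.00013), and the lines again overlapped. Other genes of the same steps are counted in the wider list.

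The 250 bases before the start of AGPAT2 and of PNPLA2 are shown because these genes, one higher and one lower in Caco-2 with no overlap between the lines, had RefSeq promoters (build GRCh38.p14) in the table used, which matched 5 of the 10 genes. They are reference sequence, not reads of these lines, and capitals mark the letters GGGCGG of a GC box on either strand.
AGPAT2, chr9:136687458-136687707, minus strand: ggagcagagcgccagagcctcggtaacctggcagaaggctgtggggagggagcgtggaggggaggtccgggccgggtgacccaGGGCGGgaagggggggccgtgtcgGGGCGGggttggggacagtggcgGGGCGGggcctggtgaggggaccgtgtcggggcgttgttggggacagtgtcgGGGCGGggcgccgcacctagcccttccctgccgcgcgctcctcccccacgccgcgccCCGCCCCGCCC
PNPLA2, chr11:818664-818913, plus strand: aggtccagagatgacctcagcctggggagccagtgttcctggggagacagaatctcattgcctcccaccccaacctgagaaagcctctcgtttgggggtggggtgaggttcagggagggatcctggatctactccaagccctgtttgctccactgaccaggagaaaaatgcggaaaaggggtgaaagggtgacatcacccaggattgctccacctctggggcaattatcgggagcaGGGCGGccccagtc
The AGPAT2 window had 77.6% G and C and 6 GC box matches, of which the last 2 overlap by 1 base, and the PNPLA2 window had 58.4% and 1 match. A match was present in 42.6% of the 35116 promoter windows of this length. Neither window held TATAAA (10.7% of windows), CCAAT (32%) or CACGTG (6.34%) on either strand. These are matches of letters, not measured sites.

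In Caco-2, DGAT2 was the more abundant of the genes for the last step of synthesis. DGAT2 and DGAT1 are unrelated in sequence but catalyse the same reaction. In mono-cultured Caco-2, DGAT2 was at 289.5, 233.7 and 165.8 TPM in control libraries and at 215.6, 233.0 and 196.8 TPM with FFAs. In co-cultured Caco-2 it was at 232.5 and 243.9 TPM in control libraries and at 251.6, 293.6 and 225.3 TPM with FFAs. All Caco-2 groups overlapped, and DGAT2 was the highest of the 10 genes in each of the 11 libraries. In HepG2, DGAT2 was lower and more spread. DGAT2 was at 71.6, 78.3 and 23.01 TPM in mono-culture control libraries numbered 1 to 3, and at 84.1, 97.2 and 34.4 TPM with FFAs. In co-culture it was at 60.8, 91.8 and 36.8 TPM without FFAs and at 84.1, 83.3 and 34.6 TPM with them. The library numbered 3 was the lowest of each group. Caco-2 exceeded HepG2 by a log2 fold change of 1.96 (SE 0.23 by limma, adjusted p = 1.6e-07), and 1.61 without any library numbered 3.

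DGAT1 differed less between the lines. In mono-cultured Caco-2, DGAT1 was at 140.7, 142.6 and 97.3 TPM without FFAs and at 115.8, 155.5 and 149.7 TPM with them, and in co-culture at 135.6 and 147.2 TPM without and at 136.2, 200.3 and 124.9 TPM with them. HepG2 libraries ranged from 68.2 to 114.9 TPM, and the lines overlapped. Between the lines DGAT1 had a log2 fold change of 0.70 (SE 0.085 by limma, adjusted p = 3.0e-07). The ratio of DGAT1 to DGAT2 was below 1 in all 11 Caco-2 libraries, with a log2 ratio of -0.74 ± 0.18 (SD, n = 11). It was above 1 in 10 of 12 HepG2 libraries, with a log2 ratio of 0.52 ± 0.71 (SD, n = 12) and a median of 0.25, the exceptions being both co-cultured libraries numbered 2. In the 4 HepG2 libraries numbered 3 the log2 ratio was 0.91 to 1.81, above the other 8.

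Of the monoacylglycerol acyltransferases, MOGAT2 was higher in HepG2 and MOGAT3 stood at a like level in both lines. MOGAT2, known for its role in intestinal fat absorption, was at 0.16 to 1.12 TPM in the 11 Caco-2 libraries and was not tested within that line. In mono-cultured HepG2, it was at 22.1, 26.7 and 9.16 TPM without FFAs and at 20.3, 25.2 and 12.1 TPM with them. In co-cultured HepG2, it was at 16.3, 15.1 and 8.60 TPM without and at 16.1, 19.8 and 7.98 TPM with them. Each HepG2 library stood above every Caco-2 library. MOGAT2 had a log2 fold change of -3.33 (SE 0.19 by limma, adjusted p = 2.1e-12) and -4.46 with a pseudocount of 0.1, since the added 1 TPM shrinks differences of low genes. It passed the filter on low values through HepG2 only, so a difference between the lines was built into its inclusion. MOGAT3 was at 6.26 to 11.2 TPM in Caco-2 and 4.28 to 13.9 TPM in HepG2. Its log2 fold change was 0.034 (95% interval -0.26 to 0.33, limma adjusted p = 0.83), and -0.29 (limma adjusted p = 0.042) after quantile normalization, which sets the median of all genes near 0.

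Of the lipases, PNPLA2 and MGLL separated the lines in opposite directions. PNPLA2 was at 22.8 to 34.7 TPM in Caco-2 with a median of 25.5 TPM, and at 35.3 to 74.8 TPM in HepG2 with a median of 57.0 TPM. The highest Caco-2 library (co-culture control) and the lowest HepG2 library (mono-culture with FFAs) were close to each other. PNPLA2 had a log2 fold change of -1.04 (SE 0.11 by limma, adjusted p = 2.6e-08). PNPLA3 was at 21.2 to 39.5 TPM in Caco-2 and at 20.4 to 52.2 TPM in HepG2, with a log2 fold change of -0.11 (95% interval -0.39 to 0.18, limma adjusted p = 0.48). PNPLA3 was called lower in Caco-2 after quantile normalization (log2 fold change -0.38, limma adjusted p = 0.0087) and after median-of-ratios scaling (-0.33, limma adjusted p = 0.021). MGLL was low in both lines, at 1.29 to 5.55 TPM in Caco-2 and at 0 to 1.14 TPM in HepG2, where it was listed at 0 in 5 of 12 libraries. Its log2 fold change was 1.64 (SE 0.15 by limma, adjusted p = 3.6e-09) and 3.81 with a pseudocount of 0.1. MGLL passed the filter on low values through Caco-2 only, so a difference between the lines was built into its inclusion.

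The levels of the 10 genes fell into tiers in Caco-2, whereas in HepG2 neighbouring genes overlapped except at the bottom. In Caco-2, DGAT2, AGPAT2 and DGAT1 had medians of 233.0, 174.8 and 140.7 TPM, and every library of these 3 genes exceeded every library of GPAM, PNPLA3 and PNPLA2 (medians of 29.5, 29.3 and 25.5 TPM), whose ranges overlapped. LPIN1 (10.5 TPM) and MOGAT3 (7.97 TPM) overlapped below them, followed without overlap by MGLL (2.81 TPM) and MOGAT2 (0.54 TPM). In HepG2, DGAT1, DGAT2 and PNPLA2 led with medians of 81.1, 74.9 and 57.0 TPM, and each neighbouring pair in the order overlapped down to AGPAT2 (4.88 TPM). GPAM, PNPLA3, LPIN1, MOGAT2 and MOGAT3 lay between, with medians of 39.9, 29.6, 17.2, 16.2 and 7.48 TPM. MGLL alone stood apart at the bottom. These overlaps are of ranges over libraries. Within single HepG2 libraries, PNPLA2 exceeded GPAM, PNPLA3 exceeded LPIN1 and MOGAT2 exceeded MOGAT3 in 12 of 12. The other neighbouring pairs down to AGPAT2 kept their order in 5 to 10 of 12. DGAT2 made up 35.5% ± 2.7 (SD, n = 11) of the summed TPM of the 10 genes in Caco-2 and 19.4% ± 6.8 (SD, n = 12) in HepG2, and AGPAT2 made up 26.9% ± 2.4 and 1.57% ± 0.57.

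In the mono-culture control libraries alone, which are part of the averaged contrast, 6 of the 10 genes were called (62.4% of all genes tested) and 7 did not overlap, 4 higher (41.9% of all genes) and 3 lower (25.5%) in Caco-2. These counts include MGLL and MOGAT2, which passed the filter on low values only through the line where each was higher. A difference between the lines was therefore built into their inclusion. AGPAT2 (log2 fold change 5.31), DGAT2 (2.12), MGLL (2.12) and DGAT1 (0.53) were higher in Caco-2, and MOGAT2 (-3.37) and PNPLA2 (-1.29) were higher in HepG2. The largest limma adjusted p among these was 0.0083, for DGAT1. LPIN1 did not overlap either, at -0.60 (limma adjusted p = 0.052). After median-of-ratios scaling and after quantile normalization DGAT1 was no longer called (0.34 and 0.31) and LPIN1 was (-0.78 and -0.84).

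A wider list of 33 genes of the pathway also held genes called higher in each line. Of the 30 tested between the lines, 14 were called higher in Caco-2 and 12 higher in HepG2 (49.8% and 29.2% of all genes were), and their median log2 fold change was 0.11. Of the 30, 5 reached 1 TPM in Caco-2 only, G0S2, PLPP2 and LIPE among them. A difference between the lines was thus built into the inclusion of these 5, and the counts were not repeated without them. Higher in Caco-2 by the largest amounts were G0S2, the inhibitor of PNPLA2 (7.41, limma adjusted p = 9.9e-21), the lipid phosphate phosphatases PLPP2 (6.26, limma adjusted p = 5.2e-21) and PLPP1 (3.79, limma adjusted p = 2.0e-18), and LIPE, hormone-sensitive lipase (2.91, limma adjusted p = 7.2e-17). Higher in HepG2 were glycerol kinase GK (-3.35, limma adjusted p = 5.2e-12), glycerol-3-phosphate dehydrogenase GPD1 (-2.05, limma adjusted p = 5.9e-08), PLPP3 (-0.96, limma adjusted p = 1.7e-09) and FITM2 (-0.93, limma adjusted p = 3.2e-10). Of the partners of PNPLA2, G0S2 entered the test through Caco-2 only, whereas ABHD5 reached 1 TPM in both lines. G0S2 was at 160.4 to 334.3 TPM in Caco-2 and 0 to 1.3 TPM in HepG2, and ABHD5 was higher in Caco-2 by 1.03 on the log2 scale (SE 0.064 by limma, adjusted p = 1.0e-11). The log2 ratio of PNPLA2 to G0S2, each with 1 TPM added, was -3.03 ± 0.44 (SD, n = 11) in Caco-2 and 5.42 ± 0.50 (SD, n = 12) in HepG2, without overlap. With G0S2 near 0 TPM in HepG2, the ratio there mainly follows PNPLA2 and the added 1 TPM.

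**Figure D2:**
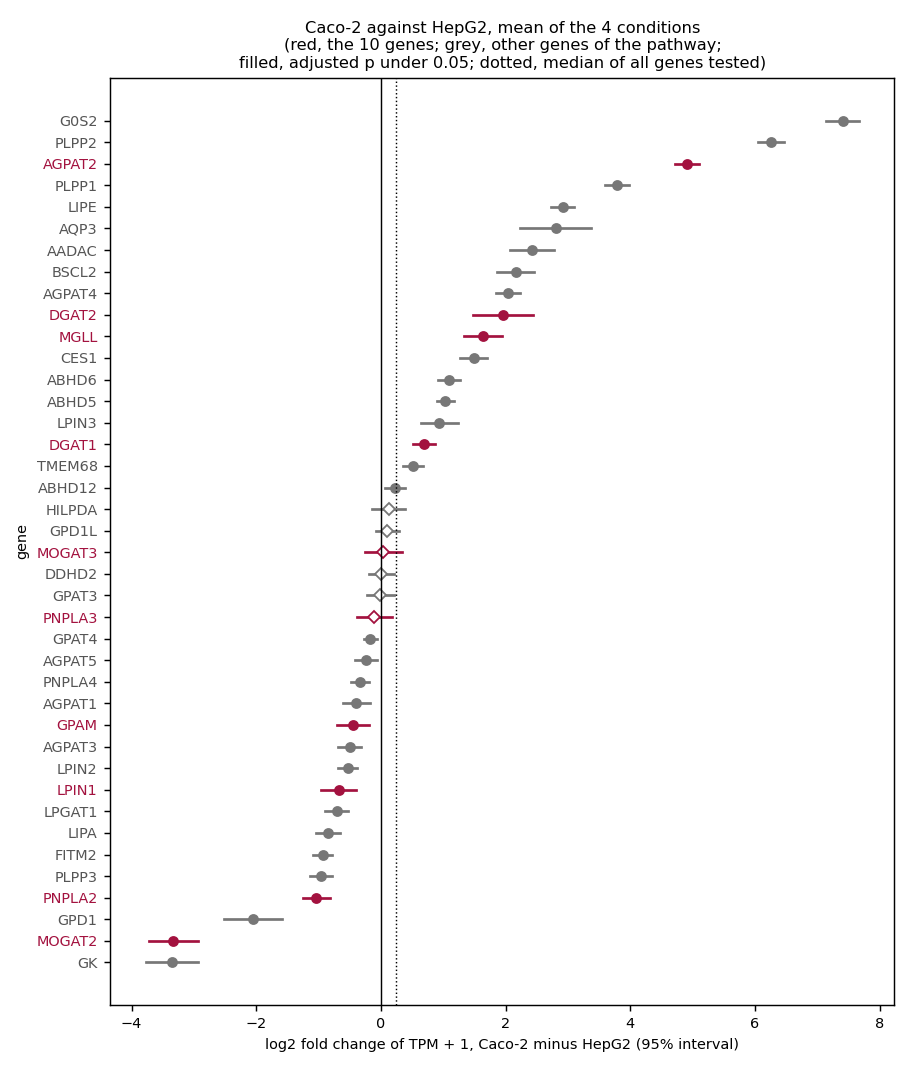
Log2 fold change of TPM + 1 between Caco-2 and HepG2 (x axis, positive where Caco-2 was higher) for the 10 genes (red) and the other pathway genes tested (grey), with 95% intervals from limma; filled points had an adjusted p under 0.05, and the dotted line is the median of all genes tested (0.24). AGPAT2 lies at 4.91 and MOGAT2 at -3.33, and MOGAT3 and PNPLA3 lie next to 0.

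The next comparison asked whether 1 day of FFAs changed the genes of triglyceride turnover. None of the tested genes of the list was called in either line or culture by limma, 0 of 9 in each of the 4 contrasts, nor was any of the other pathway genes tested (30 in Caco-2 and 25 in HepG2). Over all genes, 0% were called in mono-cultured Caco-2, in mono-cultured HepG2 and in co-cultured HepG2, and 0.0199% in co-cultured Caco-2. Averaged over both cultures, the 95% intervals of the 9 genes lay between -0.58 and 0.63 in Caco-2 and between -0.69 and 1.05 in HepG2 on the log2 scale. The interval of DGAT2 in HepG2 (-0.61 to 1.05) was the widest. At an unadjusted p under 0.05 there were 0 of 9 genes in mono-cultured Caco-2 (2.61% of all genes), 1 in co-cultured Caco-2 (2.83%), 1 in mono-cultured HepG2 (2.24%) and 0 in co-cultured HepG2 (1.84%).

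DGAT1 in mono-cultured HepG2 was the lone such gene of that line. Its level was 79.2, 96.7 and 83.0 TPM in the control libraries and 110.1, 107.5 and 114.9 TPM with FFAs. The groups did not overlap, as was so for 3.10% of all genes in this direction. The log2 fold change was 0.36 (SE 0.11 by limma), with an unadjusted p under the threshold but an adjusted p of 1. In co-cultured HepG2, DGAT1 was at 69.5, 77.1 and 69.8 TPM without FFAs and at 84.6, 68.2 and 78.1 TPM with them, which overlapped (log2 fold change 0.088, limma adjusted p = 1). The difference of these effects was -0.27 (95% interval -0.62 to 0.067, limma adjusted p = 1), so a change of the FFAs effect with culture was not shown. Averaged over both cultures the effect was 0.22 (SE 0.078 by limma, adjusted p = 1).

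MGLL in Caco-2 was the other. In mono-culture its level was 3.73, 3.18 and 3.71 TPM in control libraries and 2.81, 2.89 and 1.94 TPM with FFAs, lower without overlap (2.05% of all genes). In co-culture it was 1.29 and 1.71 TPM in control libraries and 2.71, 5.55 and 2.09 TPM with FFAs, higher without overlap (8.27%). The log2 fold changes were -0.37 (SE 0.26 by limma, adjusted p = 1) and 0.76 (SE 0.29 by limma, adjusted p = 1), which became -0.24 without the mono-culture library numbered 3 with FFAs and 0.44 without the co-culture library numbered 2 with FFAs. Their difference was 1.12 (SE 0.39 by limma, adjusted p = 1), and 1.94% of all genes had an unadjusted p under 0.05 in that contrast. MGLL levels were a few TPM at most, and the counts behind them are not known.

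Co-culture was compared with mono-culture next. The FFAs and co-culture contrasts of a line use the same libraries, and their values are therefore not independent. In Caco-2 none of the 9 genes was called by limma, without FFAs, with FFAs or averaged over both (0.0199%, 0% and 0% of all genes were). At an unadjusted p under 0.05 there was 1 gene without FFAs (5.43% of all genes), 0 with FFAs (6.09%) and 0 averaged (10.5%). The gene was MGLL, lower in co-culture without FFAs by a log2 fold change of -0.86 (SE 0.29 by limma, adjusted p = 0.87), without overlap (7.99% of all genes). MOGAT3 did not overlap in the same contrast, at 7.83, 7.74 and 6.51 TPM in mono-culture and 8.68 and 7.97 TPM in co-culture (15.1% of all genes higher), with a log2 fold change of 0.16 (SE 0.21 by limma, adjusted p = 0.92). Without the mono-culture library numbered 3 it was 0.085, and without the co-culture library numbered 1 it was 0.11.

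In HepG2 none of the 9 genes was called by limma in the co-culture contrasts fitted without the replicate number, where 0.0561% of all genes were called averaged over treatments and 0% in each treatment alone. At an unadjusted p under 0.05 there were 4 of 9 genes averaged over treatments, beside 12.5% of all genes tested, with estimates below 0 in co-culture for DGAT1 and PNPLA3 and above 0 for AGPAT2 and GPAM. The median log2 fold change of the 9 genes was -0.30, and that of all genes tested -0.022. Of the other pathway genes, 25 were tested and 0 were called, 4 having an unadjusted p under 0.05. With the replicate number as a block, 2 of the 9 genes were called averaged over treatments, DGAT1 and PNPLA3, both lower in co-culture. In that fit 492 of all genes were called rather than 8, as given in the last section.

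DGAT1 had the smallest p of the 9 genes. It was at 68.2 to 84.6 TPM with a median of 73.5 TPM in the 6 co-cultured HepG2 libraries, and at 79.2 to 114.9 TPM with a median of 102.1 TPM in the 6 mono-cultured ones. The log2 fold change averaged over treatments was -0.39 (SE 0.078 by limma, adjusted p = 0.11). Co-cultured libraries lay below the mono-cultured ones in both treatments without overlap, 7.60% of all genes being so without FFAs and 5.44% with FFAs. The log2 fold change was -0.25 (SE 0.11 by limma, adjusted p = 0.65) without FFAs and -0.53 (SE 0.11 by limma, adjusted p = 0.63) with FFAs, and the former was -0.17 without the mono-culture control library numbered 2.

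AGPAT2 was compared at the low level it had in HepG2. It was at 3.22, 3.38 and 4.27 TPM in mono-culture and 7.23, 4.88 and 6.65 TPM in co-culture without FFAs, with no overlap (7.25% of all genes). With FFAs it was at 5.14, 4.87 and 2.58 TPM in mono-culture and 6.57, 6.6 and 4.74 TPM in co-culture, which overlapped. The log2 fold change averaged over treatments was 0.55 (SE 0.17 by limma, adjusted p = 0.22). Because Caco-2 held far more AGPAT2, the enterocyte markers were read beside it. Without VIL1, they summed to 0.28 to 2.15 TPM in mono-cultured and to 0.53 to 4.12 TPM in co-cultured HepG2, with 1 to 3 of the 7 listed at 0 in each library. CDH17, an enterocyte cadherin, was at 0.05 to 0.76 TPM and at 0.22 to 2.75 TPM, against a mean of 407.1 TPM in Caco-2. The part of these markers' cells in the AGPAT2 difference was not tested.

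PNPLA3 and GPAM had estimates of opposite sign, and neither was called in the fit without the replicate number. PNPLA3 in HepG2 was at 32.4, 52.2 and 21.2 TPM in mono-culture control libraries and 42.1, 47.7 and 32.4 TPM with FFAs, and in co-culture at 22.5, 26.4 and 20.4 TPM without and 26.8, 32.4 and 23.5 TPM with FFAs. The cultures overlapped in both treatments, and the log2 fold change averaged over treatments was -0.52 (SE 0.19 by limma, adjusted p = 0.29). GPAM was at 25.1 to 45.6 TPM in mono-culture and 34.7 to 55.7 TPM in co-culture (log2 fold change 0.38, SE 0.17 by limma, adjusted p = 0.40), and the value was 0.25 without the mono-culture control library numbered 1. LPIN1 was at 16.3, 24.1 and 18.5 TPM in mono-culture and 14.0, 12.7 and 15.7 TPM in co-culture without FFAs, lower without overlap, with a log2 fold change of -0.44 (SE 0.22 by limma, adjusted p = 0.69), or -0.28 without the mono-culture control library numbered 2. With FFAs its cultures overlapped (log2 fold change -0.17).

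**Figure D3:**
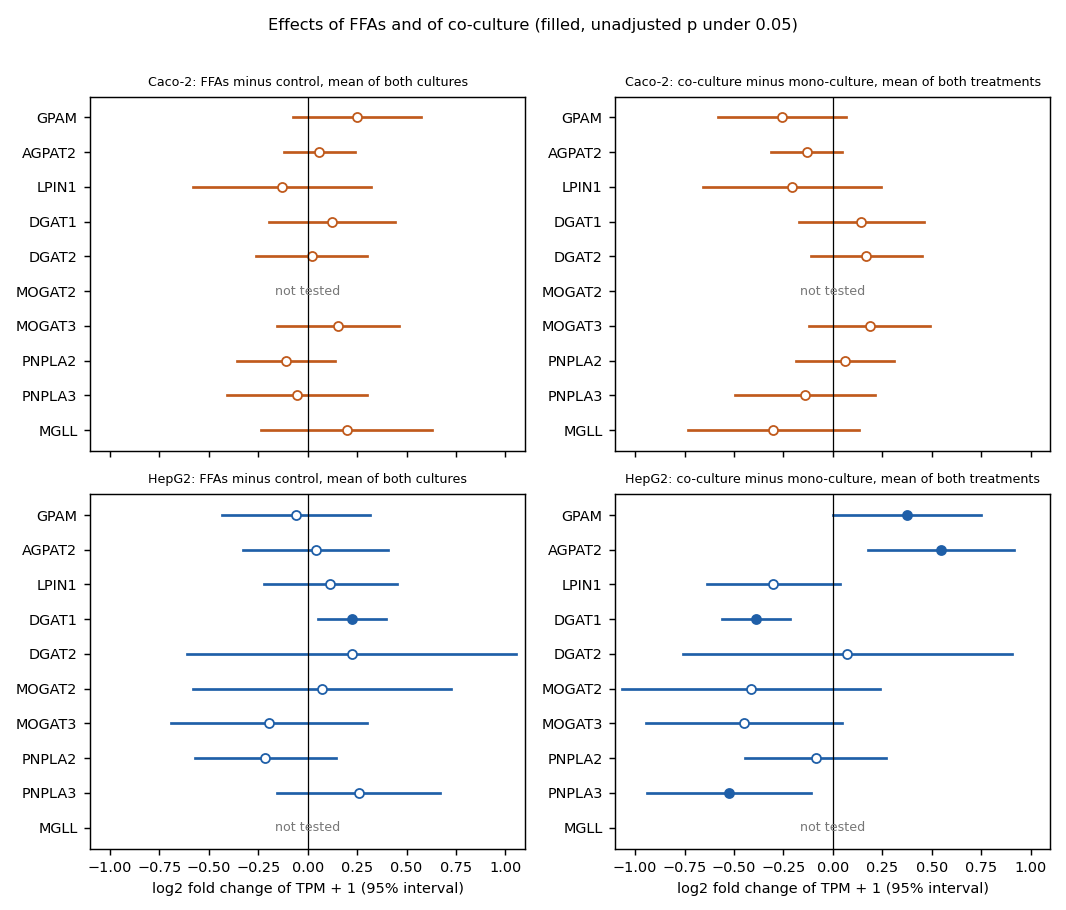
Log2 fold changes of TPM + 1 with 95% intervals (x axis) in Caco-2 (top) and HepG2 (bottom). The left panels give the effect of FFAs averaged over both cultures, and the right panels that of co-culture averaged over both treatments. Filled points had an unadjusted p under 0.05. No gene had an adjusted p under 0.05 in this fit, made without the replicate number. In HepG2 co-culture, DGAT1 lies at -0.39 and AGPAT2 at 0.55, and the intervals of DGAT2 and MOGAT2 are the widest.

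Whether the lines responded differently was tested as the difference of their effects. For FFAs, 0 of the 10 genes were called by limma (0.0182% of all genes were) and 0 had an unadjusted p under 0.05 (2.99%). For co-culture, 0 of the 10 were called (0.533% of all genes were) and 4 had an unadjusted p under 0.05 (14.6%). The effect of co-culture in HepG2 minus that in Caco-2 was 0.68 for AGPAT2 (SE 0.19 by limma, adjusted p = 0.11), -0.53 for DGAT1 (SE 0.17 by limma, adjusted p = 0.14), 0.63 for GPAM (SE 0.24 by limma, adjusted p = 0.22) and -0.63 for MOGAT3 (SE 0.28 by limma, adjusted p = 0.31). Without any library numbered 3, an alternative chosen after the data were seen, AGPAT2 was called in this contrast (0.69, limma adjusted p = 0.038). It was also called with the replicate number as a block, as given in the last section. The enterocyte markers in co-cultured HepG2 are given above, and any part of Caco-2 RNA in this AGPAT2 value was not tested.

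DGAT2 and MOGAT2, 2 acyltransferases of the same family, followed the replicate number in HepG2, a pattern singled out after the values were seen. DGAT2 was at 23.01 to 36.8 TPM in the 4 libraries numbered 3 and at 60.8 to 97.2 TPM in the 8 numbered 1 and 2. MOGAT2 was at 7.98 to 12.1 TPM and at 15.1 to 26.7 TPM in the same libraries. Both were lower in the libraries numbered 3 without overlap, as were 6.81% of all genes tested in HepG2, and 4.91% were higher. In Caco-2, the library numbered 3 was also the lowest in DGAT2 of each group that had one. Those libraries were at 165.8 to 225.3 TPM of DGAT2 and the others at 215.6 to 293.6 TPM, which overlapped. The other 8 genes overlapped in HepG2 by this split, DGAT1 being at 69.8 to 114.9 TPM and at 68.2 to 110.1 TPM. What the number stands for is not given in the labels.

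The DGAT2 and MOGAT2 genes lie next to each other on the plus strand of chromosome 11 (GRCh38, GENCODE v44), MOGAT2 at 75717838 to 75732958 and DGAT2 at 75759512 to 75801535. The gap between them is 26553 bp and holds 1 whole gene, which is not protein-coding. The neighbours differed between the lines in opposite directions, DGAT2 being higher and MOGAT2 lower in Caco-2. The libraries were not made to keep strand, and exons of DGAT2 share 117 bp with DGAT2-DT and 423 bp with an unnamed gene on the opposite strand, so reads of these genes there cannot be told apart. The same holds for 137 bp of DGAT1 shared with HSF1 on the opposite strand. It also holds for 401 of the 3831 bp of PNPLA2 exons and 115 of the 11861 bp of LPIN1 exons, shared with unnamed genes on the opposite strand. PNPLA3 shares 148 bp of exon with SAMM50 on its own strand. DGAT1 shares 444 of its 4131 bp of exon with an unnamed gene and 7 bp with MIR6848, both on its own strand.

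**Figure D4:**
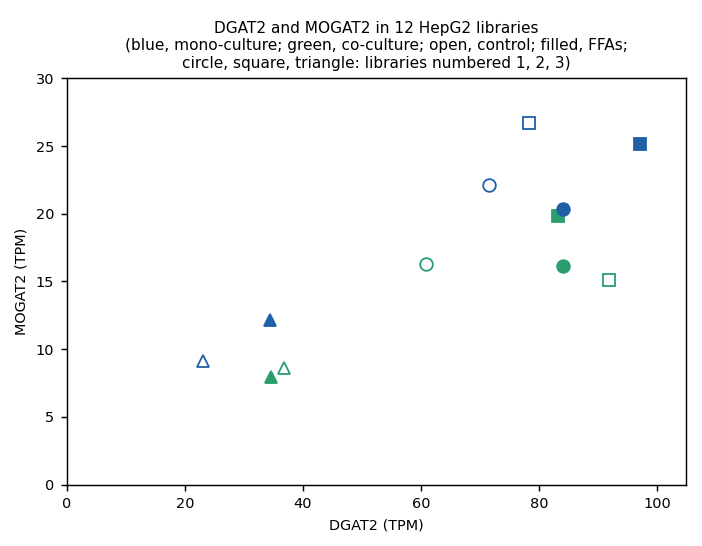
MOGAT2 (y axis, TPM) against DGAT2 (x axis, TPM) in the 12 HepG2 libraries; marker shape gives the replicate number, colour the culture and filling the treatment. The 4 libraries numbered 3 (triangles) lie at 23.01 to 36.8 TPM of DGAT2 and 7.98 to 12.1 TPM of MOGAT2, apart from the other 8.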

How the data were processed

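The authors deposited 1 table of TPM per library (23 libraries). Per the submitters' processing notes and the methods, reads of rRNA, tRNA and the mitochondrial genome were removed with Bowtie2 2.1.0, and the rest was mapped to GRCh38 with STAR 2.7.1a and quantified with RSEM 1.3.0. Libraries were made with SMART-Seq v4 from polyA RNA. The files hold no counts, so depth and counting error are unknown. Removed reads could not be restored.

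The 10 genes were found by symbol. log2(TPM + 1) was fitted with limma 3.58.1 (eBayes with a trend, R 4.3.3), with the 4 groups of a line in 1 fit, or 8 groups for contrasts of lines, keeping genes whose mean reached 1 TPM in any group, and p-values were adjusted by Benjamini-Hochberg with a threshold of 0.05. Scripts were tested on simulated data. Genes printed in full had an unadjusted p under 0.05 or no overlap of groups. Alternatives were a pseudocount of 0.1, other filters and scalings, no trend, a replicate block and left-out libraries. The members and lists were chosen with earlier results of these data known. Of 60564 gene IDs, 60295 matched GENCODE v44. Python 3.11.15 was used for tables and figures.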

Additional observations from a re-analysis of the deposited data

How the results depend on the processing

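The number of the 10 genes called was within 1.5 times the reported count under all alternatives run except 3 cases, named here. With the replicate number as a block, 2 genes were called in HepG2 co-culture averaged over treatments, DGAT1 (limma adjusted p = 0.029) and PNPLA3 (limma adjusted p = 0.033), beside 492 of all genes rather than 8, and 1 gene, AGPAT2 (limma adjusted p = 0.045), in the difference of the co-culture effects between the lines. That last count was also 1 without any library numbered 3, an alternative chosen after the data were seen. The labels do not say what a number stands for. The numbers were not taken as pairing, since that was to require a correlation over 0.1 in every same-numbered pair of libraries, which 7 of 15 pairs in Caco-2 and 15 of 18 in HepG2 had. In HepG2 the deviations nevertheless went with the number, with a median correlation of 0.30 in same-numbered pairs and -0.23 in others, and 10 of 12 libraries correlated best with one of their own number (5 of 11 in Caco-2). In HepG2 the pairs numbered 3 had 0.46 to 0.60 and the other same-numbered pairs 0.028 to 0.52, while a pair numbered 1 and 2 reached 0.34. The 2 Caco-2 co-culture control libraries mirror each other in their deviations from the group mean, so both Caco-2 counts are partly set in advance. When 1 library was left out at a time, the count of all genes called in HepG2 co-culture ranged from 0 to 15. MOGAT3 between the lines, at 0.034, turned negative under median-of-ratios scaling (-0.17), quantile normalization (-0.29), without libraries numbered 3 (-0.069) and in 4 of 23 single omissions (-0.043 to 0.096 over all 23). The median of all genes between the lines moved from 0.24 to 0.049 and -0.0036 under these scalings, under which 9 and 10 of the 10 genes were called. With a mean of at least 5 TPM required, MGLL was not tested and 7 genes were called. The cause was not tested.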
